A study of Homo sapiens with 16 samples.

Results

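CD14, LY96, 7 Toll-like receptor (TLR) genes and the adaptor gene MYD88 were followed through RNA-Seq of MUTZ-3, an established human acute myeloid leukemia cell line with a 3q rearrangement that drives EVI1, the transcription factor encoded at MECOM. The members were chosen by gene name, as the cell surface and endosomal sensors of microbial products that monocytes carry and the proteins directly beside them, and made up 10 of the 60623 gene rows counted in each of 16 libraries. All cells were kept with GM-CSF and medium conditioned by another cell line. The PARP inhibitor (PARPi) experiment had 10 libraries, 1 of cells before any treatment (untreated, 0 h) and 9 that covered olaparib at 10 µM, talazoparib at 1 µM and their vehicle DMSO at 12, 24 and 48 h. The knockdown had 6 libraries of cells carrying a pLKO.1 lentivirus under puromycin, with a non-targeting control (NTC), shEVI1-2531 or shEVI1-2532, each at day 3 and day 6. Each condition was 1 library of 1 cell line, so the p-values below rest on the spread between time points or between days. They do not measure the spread between separate cultures of the same condition. The spread of each gene was also drawn towards that of all genes tested, so it was not that gene's own alone. In the knockdown only cells that had survived puromycin were measured. The comparisons ask how these receptor genes changed after PARP inhibition and after loss of EVI1.

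CD14 is a surface protein of monocytes that hands lipopolysaccharide to TLR4, which binds it together with MD-2, the product of LY96. TLR2 pairs with TLR1 or TLR6 to bind bacterial lipopeptides, TLR5 binds flagellin, and TLR7 and TLR8 bind single-stranded RNA in endosomes. All of these receptors signal through MYD88 to IRAK kinases, TRAF6 and NF-κB, and CD14 and several TLRs gain in expression as myeloid progenitors mature towards monocytes.

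Positions are in the GRCh38 coordinates of the deposited files. CD14 was at chr5:140631728-140633701 on the minus strand, TLR2 at chr4:153684070-153705702 on the plus strand, TLR4 at chr9:117704175-117724735 on the plus strand and MYD88 at chr3:38138478-38143022 on the plus strand. TLR1 at chr4:38790677-38856817 and TLR6 at chr4:38823715-38856817 were neighbours on the minus strand with the same annotated 5′ end, and TLR7 at chrX:12867072-12890361 and TLR8 at chrX:12906620-12923169 were neighbours on the plus strand. TLR5 was at chr1:223109404-223143248 on the minus strand. The RefSeq promoter table (GRCh38.p14) held 7 of the 10 members. In 5 of these, 34 to 250 of the 250 bases before the RefSeq start lay in an exon of a longer GENCODE v29 transcript, and the window of CD14 was exonic throughout. The windows of TLR6 and TLR8 did not, and they are shown because they stand before genes whose levels are followed below. The TLR6 window at chr4:38856818-38857067 is given on the minus strand and also borders the 5′ end that the deposited annotation gives TLR1. The TLR8 window at chrX:12906370-12906619 is given on the plus strand. Capitals mark the letters GAGGAA (a PU.1 core, here read on the other strand as TTCCTC) and TTGCNNAA (a C/EBP pattern, read on the other strand).
TLR6: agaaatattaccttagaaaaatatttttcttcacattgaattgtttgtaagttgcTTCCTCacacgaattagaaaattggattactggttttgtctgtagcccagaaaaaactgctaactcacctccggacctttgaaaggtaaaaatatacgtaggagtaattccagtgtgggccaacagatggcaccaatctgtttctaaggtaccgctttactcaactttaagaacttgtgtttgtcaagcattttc
TLR8: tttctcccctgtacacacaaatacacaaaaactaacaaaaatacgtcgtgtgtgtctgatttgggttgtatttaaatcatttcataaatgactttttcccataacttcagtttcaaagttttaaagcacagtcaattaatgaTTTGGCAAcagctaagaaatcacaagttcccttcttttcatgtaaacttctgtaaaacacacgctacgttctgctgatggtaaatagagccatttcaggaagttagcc
Both strands of the 7 windows were searched for these 2 patterns, for TGTGGT (RUNX) and for GGGANTTTC (NF-κB), 4 patterns that did not overlap each other in these windows. GAGGAA was found before CD14, TLR4, TLR6 and MYD88, 4 of the 7, and in 23.6% of 35116 promoter windows of the same length. In the TLR4 window, where 246 of the 250 bases were exonic, it occurred 4 times. The match of CD14 lay within an annotated exon, and 183 of the 250 bases of the MYD88 window were exonic. TTGCNNAA was found before TLR8 alone of the 7 and in 9.05% of all windows. TGTGGT and GGGANTTTC were in none of the 7, and in 11% and 1.12% of all windows. A match describes the letters and not the binding of a factor.

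The libraries held 55999673 to 72681943 counted fragments in the PARPi experiment and 95523038 to 120716213 in the knockdown experiment, so that 3 counts, taken as the detection floor, corresponded to 0.0249 to 0.0536 CPM (counts scaled to a library of 1000000). Levels below are CPM after TMM scaling over all 16 libraries, with scaling factors between 0.821 (shEVI1-2532 at day 3) and 1.13. The labels were read against the targeted gene. MECOM, whose gene-level counts do not separate EVI1 from longer transcripts of the locus, was at 45.1 CPM with the NTC at day 3 and 43.1 at day 6, 14.5 and 20.2 with shEVI1-2531, and 5.49 and 4.76 with shEVI1-2532. The names of the deposited files of the shEVI1-2531 libraries carry another shRNA number than the labels, which were followed here, and the MECOM level cannot show which shRNA a library carried. In the PARPi experiment MECOM was at 26.2 CPM in untreated cells and, at 12, 24 and 48 h, at 46.9, 46.6 and 57.5 with DMSO, 42.5, 36.1 and 21.5 with olaparib and 42.2, 28.6 and 9.25 with talazoparib. CD34, a surface marker of progenitors, was at 745 CPM with the NTC at day 6, 91.2 with shEVI1-2531 and 3.98 with shEVI1-2532. The NTC libraries differed in CD34 too, with 322 CPM at day 3.

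Ordered by median CPM per exonic kilobase (GENCODE v29 exons), the members ran from MYD88 (22.6), TLR2 (8.06), CD14 (6.48), TLR1 (5.16), TLR6 (2.62), LY96 (1.51) and TLR4 (0.89) to TLR8 (0.252), TLR7 (0.0382) and TLR5 (0). The ranges over the 16 libraries overlapped between neighbours in this order, and only 6 of the 10 genes had the same span in GENCODE v29 as in the files. CD14 covered the widest range of those above the floor in every library, from 0.257 to 47.2 CPM per kilobase. TLR5 had 0 to 3 counts per library and was at or under the floor in 16 of 16 libraries, so no change in it was detectable at this depth. TLR7 had 2 to 41 counts per library.

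Under PARP inhibition CD14 had the largest fitted mean effect over the 3 time points among the members, and TLR8 and LY96 came next. None of these mean effects was called, and no test compared these genes. With talazoparib at 24 h the log2 ratio of LY96 to DMSO (2.39) was above that of CD14 (2.25). CD14 was at 5.91 CPM in untreated cells and at 7.80, 5.07 and 2.59 with DMSO at 12, 24 and 48 h, against 12.7, 23.2 and 59.6 with olaparib and 9.98, 24.2 and 89.0 with talazoparib. CD14 was thus lower at later hours with DMSO and higher at later hours with either inhibitor, and each of the 6 inhibitor libraries lay above every DMSO and untreated library. The log2 ratio to DMSO of the same hour went from 0.70 (95% counting interval 0.55 to 0.86) at 12 h to 4.53 (4.31 to 4.75) at 48 h with olaparib, and from 0.36 (0.20 to 0.51) to 5.11 (4.89 to 5.33) with talazoparib. These exact binomial intervals cover counting error only. The DMSO level at 48 h entered these ratios, and its own log2 ratio to DMSO at 12 h was -1.59. LY96, on chromosome 8, stayed low at 12 h and was higher later. It was at 0.375 CPM in untreated cells, at 0.551, 0.378 and 1.14 with DMSO, at 0.351, 1.21 and 8.15 with olaparib and at 0.428, 1.98 and 12.3 with talazoparib. At 12 h both inhibitor libraries lay below DMSO within counting error, and at 48 h the log2 ratios were 2.84 (2.50 to 3.20) and 3.44 (3.10 to 3.80).

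**Figure D1:**
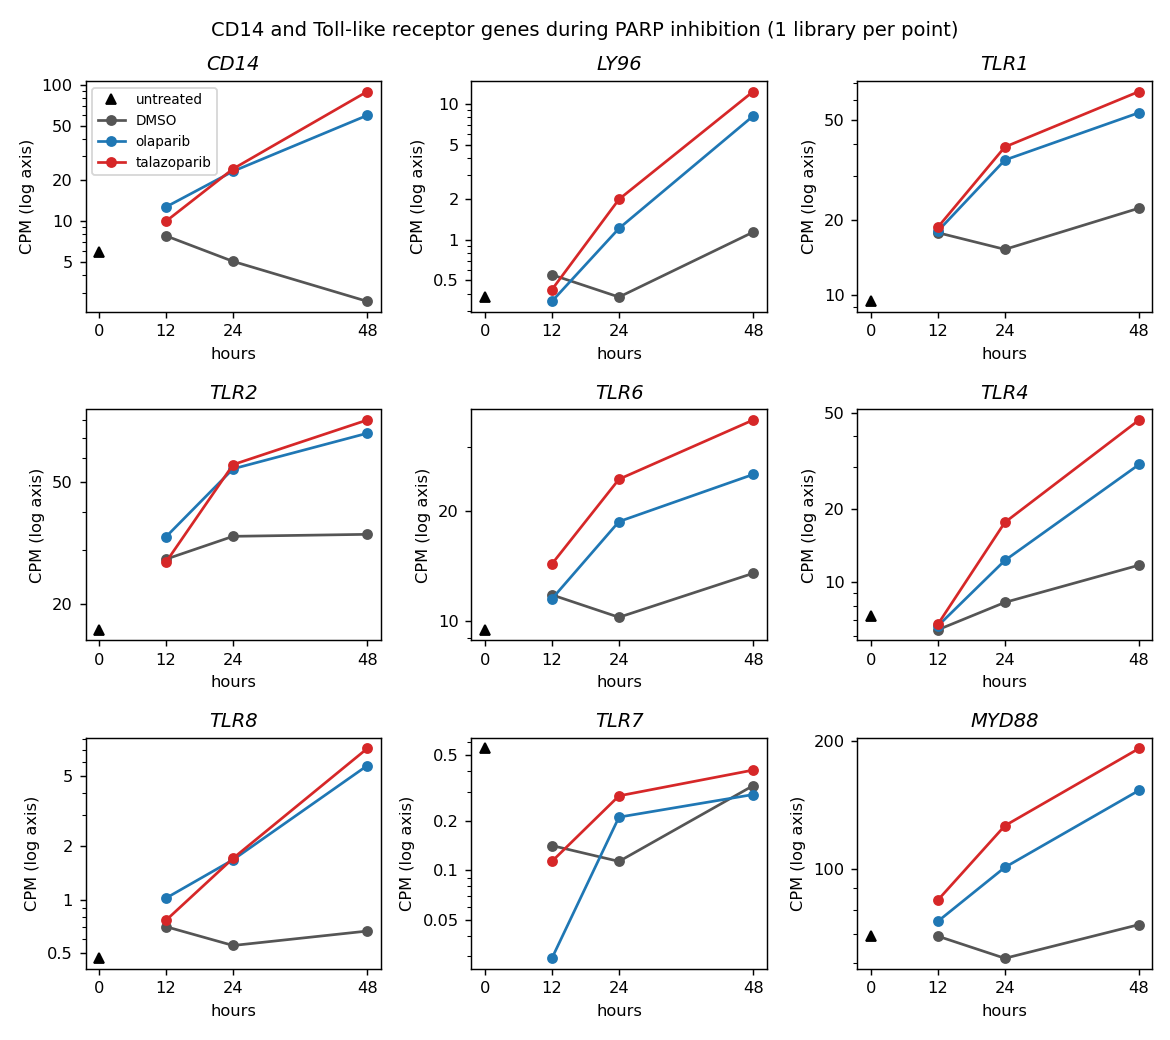
CPM (log axis, TMM-scaled) of 9 members against hours in the PARPi experiment, 1 library per point, with untreated cells as triangles and lines joining the time points of DMSO, olaparib and talazoparib. The inhibitor and DMSO lines lie closer together at 12 h than at 48 h in all panels but TLR7, and CD14 reaches 89.0 CPM with talazoparib against 2.59 with DMSO. TLR5, at or under the floor, is not drawn.

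TLR2 and its partners TLR1 and TLR6 were measured at each time point as well. TLR2 was at 16.5 CPM in untreated cells, at 28.0, 33.3 and 33.8 with DMSO, at 33.2, 55.3 and 72.3 with olaparib and at 27.4, 57.1 and 79.9 with talazoparib. TLR1 was at 9.48 CPM in untreated cells, at 17.8, 15.3 and 22.3 with DMSO, at 18.0, 34.7 and 53.5 with olaparib and at 18.7, 39.1 and 65.0 with talazoparib. TLR6 was at 9.45 CPM in untreated cells, at 11.8, 10.2 and 13.5 with DMSO, at 11.5, 18.7 and 25.3 with olaparib and at 14.3, 24.5 and 35.6 with talazoparib. In all 3 genes the inhibitor libraries at 24 and 48 h lay above every DMSO library, and those at 12 h lay within or near the DMSO range. TLR4 followed the same order, with 7.22 CPM in untreated cells, 6.36, 8.26 and 11.8 with DMSO, 6.59, 12.3 and 30.6 with olaparib and 6.70, 17.7 and 46.7 with talazoparib. The DMSO libraries of TLR4 themselves differed by 0.89 on the log2 scale between 12 and 48 h. How many of all genes showed such a separation of inhibitor from DMSO libraries was not counted, for these genes or the other members. TLR1 and TLR6 share 57 exonic bases of their first exon, so reads there could not be assigned to one of them, and TLR4 shares 558 exonic bases with AL160272.2, which had 0 to 8 counts.

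TLR8 and TLR7 are the endosomal receptors of the set, which sense RNA. TLR8 was at 0.469 CPM in untreated cells, at 0.707, 0.554 and 0.668 with DMSO, at 1.02, 1.68 and 5.70 with olaparib and at 0.768, 1.72 and 7.12 with talazoparib. All 6 inhibitor libraries lay above the DMSO libraries, with log2 ratios of 3.09 (2.65 to 3.57) and 3.41 (2.97 to 3.88) at 48 h. At 12 h the ratios lay within counting error, at 0.53 (-0.01 to 1.09) with olaparib and 0.12 (-0.44 to 0.69) with talazoparib. TLR7, its neighbour on the X chromosome, was highest in untreated cells at 0.550 CPM (41 counts) and lay between 0.0292 and 0.406 CPM in the inhibitor libraries and 0.113 and 0.327 with DMSO, with groups that overlapped. MYD88 was at 69.4 CPM in untreated cells, at 69.3, 61.5 and 73.8 with DMSO, at 75.1, 101 and 153 with olaparib and at 84.3, 126 and 192 with talazoparib. Its inhibitor libraries all lay above its DMSO libraries, already at 12 h by 0.12 (0.06 to 0.17) and 0.28 (0.23 to 0.34) on the log2 scale.

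The test of the mean inhibitor effect over the 3 time points called none of the 9 members that could be tested (edgeR quasi-likelihood test with time point as a factor, adjusted p under 0.05 by Benjamini-Hochberg over 17218 genes), where 4.17% of all genes tested were called. At an unadjusted p under 0.05 stood 8 of the 9 members and 6047 genes, and DESeq2 called 7 members and 3474 genes. The members' median log2 fold change was 0.85, against -0.01 over all genes tested. The sizes were 2.20 ± 0.70 (SE, n = 9 libraries, edgeR adjusted p = 0.0754) for CD14, 1.65 ± 0.61 (edgeR adjusted p = 0.1) for LY96, 1.70 ± 0.48 (edgeR adjusted p = 0.0634) for TLR8 and 0.77 ± 0.18 (edgeR adjusted p = 0.0509) for MYD88. TLR1, TLR2, TLR4 and TLR6 lay between 0.68 and 0.89, with edgeR adjusted p between 0.0537 and 0.0747. The number of members called depended on the settings, and so did the number of genes. Without a count filter 8 of 10 members and 3728 of 33282 genes were called. Without the 12 h libraries 8 of 9 members (all but TLR7) and 3768 of 16692 genes were called. Without the 24 h libraries 0 members and 0 of 16613 genes were called. Without the 48 h libraries 2 members and 1239 of 16653 genes were called.

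Olaparib alone called 0 of 9 members, where 0.639% of all genes were called. In the edgeR test 6 members and 3161 genes stood at an unadjusted p under 0.05. DESeq2 called 1 member and 669 genes. Talazoparib alone called 2, MYD88 at 0.91 ± 0.20 (edgeR adjusted p = 0.0486) and TLR6 at 0.99 ± 0.22 (edgeR adjusted p = 0.0497), where 4% of all genes were called. With library totals neither was called, and 179 of 17218 genes were. Without the 12 h libraries 8 members were called for each inhibitor, beside 934 of 16692 genes for olaparib and 3954 for talazoparib. Without the 24 h libraries 0 members and 0 of 16613 genes were called for each. The doses differed, 10 µM olaparib and 1 µM talazoparib, so the inhibitors are set side by side at those doses. The difference, talazoparib minus olaparib, was called in none of the members and in 0% of all genes (edgeR, with 0 members and 354 genes at an unadjusted p under 0.05; DESeq2 called 0 members). Its 95% interval on the log2 scale ran from -0.08 to 0.91 for TLR6, from -0.16 to 0.74 for MYD88, from -0.24 to 1.10 for TLR4, from -0.47 to 0.47 for TLR2 and from -1.32 to 1.77 for CD14. In the single libraries, the members' median log2 ratio of talazoparib to olaparib was 0.051 at 12 h, against -0.028 over all genes. It was 0.33 against -0.01 at 24 h and 0.49 against 0.002 at 48 h. These medians compare 1 library with 1 library and were not tested.

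The inhibitor effect was larger at later hours for most members. In a fit with a slope on log2 hours for each inhibitor, 8 of 9 members changed with time, where 16.5% of all genes were called. The test took the slopes of both inhibitors jointly, so each p of this fit is of that joint test and not of the mean slope. By the mean slope all 8 went upward, where 8.15% of all genes were called and went upward. The mean slope per doubling of time was 2.12 ± 0.15 for CD14 (edgeR adjusted p = 7.05e-42), 1.76 ± 0.23 for LY96 (edgeR adjusted p = 2.3e-11), 1.46 ± 0.23 for TLR8 (edgeR adjusted p = 4.47e-08) and 0.80 ± 0.14 for TLR4 (edgeR adjusted p = 8.66e-07). TLR1 (0.67), TLR2 (0.52), TLR6 (0.51) and MYD88 (0.50) had shallower slopes, with edgeR adjusted p between 4.66e-05 and 0.00845, and TLR7 was not called (0.39 ± 0.48, edgeR adjusted p = 0.846). A slope draws a straight line, and the steps were not even in all members. With olaparib the log2 ratios at 12, 24 and 48 h were 0.02, 1.18 and 1.26 for TLR1 and -0.04, 0.87 and 0.90 for TLR6. For CD14 they were 0.70, 2.19 and 4.53. By p, CD14 ranked 4 among the 17218 genes. This fit left 2 residual degrees of freedom and took its error from all genes pooled, so its p-values rest on that pooled error. With library totals in place of TMM, 5 members were called, and TLR2, TLR6 and MYD88 were not.

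After EVI1 knockdown CD14 again had the largest fitted effect among the members. With shEVI1-2532 TLR8 came close to it (4.91 ± 0.39 on the log2 scale), and no test compared these genes. CD14 was at 0.484 CPM with the NTC at day 3 and 0.670 at day 6, at 11.7 and 15.9 with shEVI1-2531, and at 12.7 and 28.1 with shEVI1-2532. Both shRNAs thus lay far above both controls at both days, by 4.57 to 4.60 on the log2 scale with shEVI1-2531 and by 4.72 to 5.39 with shEVI1-2532. The fitted effect was 4.60 ± 0.25 (SE, n = 6 libraries, edgeR adjusted p = 1.9e-06) and 5.14 ± 0.25 (edgeR adjusted p = 1.29e-07), a 24.3-fold and a 35.2-fold higher level. By p, CD14 ranked 1 among 18606 genes tested with shEVI1-2531 and 13 with shEVI1-2532. CD14 was called in 16 of 16 alternatives for each shRNA.

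LY96 was higher with shEVI1-2532. It was at 0.853 and 0.402 CPM with the NTC at day 3 and day 6, at 0.981 and 0.372 with shEVI1-2531, and at 6.28 and 2.99 with shEVI1-2532. The shEVI1-2531 libraries overlapped the NTC libraries and the shEVI1-2532 libraries lay above both. The fitted effect was 0.07 ± 0.28 (edgeR adjusted p = 0.898) with shEVI1-2531, an interval of -0.54 to 0.68, and 2.95 ± 0.28 (edgeR adjusted p = 6.68e-06) with shEVI1-2532. The NTC libraries themselves differed, with a log2 ratio of day 6 to day 3 of -1.09 for LY96, and its shEVI1-2531 value turned sign, to -0.03 without the NTC library of day 3 and to -0.11 without the shEVI1-2531 library of day 3.

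**Figure D2:**
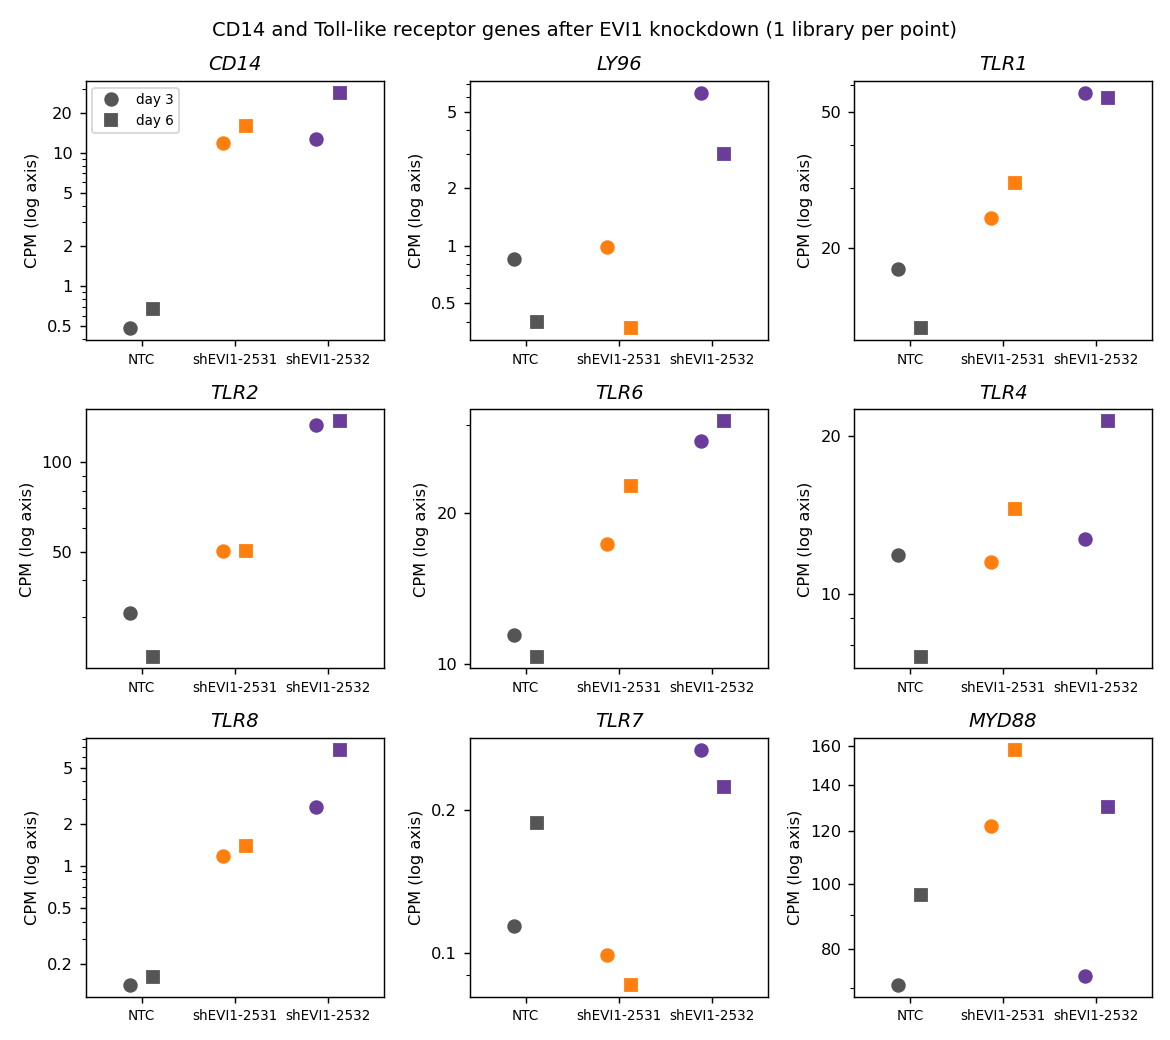
CPM (log axis, TMM-scaled) of 9 members with the NTC, shEVI1-2531 and shEVI1-2532, with circles for day 3 and squares for day 6, 1 library per point. CD14 and TLR8 lie above the NTC with both shRNAs, LY96 with shEVI1-2532, and MYD88 is highest with shEVI1-2531, at 158 CPM at day 6.

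TLR2 was at 31.0 and 22.1 CPM with the NTC, at 50.4 and 50.4 with shEVI1-2531 and at 134 and 138 with shEVI1-2532. TLR1 was at 17.4 and 11.7 CPM with the NTC, at 24.5 and 31.0 with shEVI1-2531 and at 57.0 and 55.0 with shEVI1-2532. TLR6 was at 11.4 and 10.3 CPM with the NTC, at 17.3 and 22.7 with shEVI1-2531 and at 27.9 and 30.5 with shEVI1-2532. The 3 partners stood in the same order at both days, NTC below shEVI1-2531 below shEVI1-2532, with 1 library per group and day. How many of all genes stood in this order was not counted, and TLR1 and TLR6 share exonic bases. Over all genes, 41.1% were called with shEVI1-2532, 21.2% upward. For the difference between the shRNAs 24.2% were called, 12.2% higher with shEVI1-2532. With shEVI1-2531 the 3 partners rose by 0.94 ± 0.16 (TLR2, edgeR adjusted p = 0.00167), 0.96 ± 0.21 (TLR1, edgeR adjusted p = 0.00745) and 0.87 ± 0.18 (TLR6, edgeR adjusted p = 0.00626). With shEVI1-2532 they rose by 2.43 ± 0.16 (edgeR adjusted p = 7.95e-07), 2.02 ± 0.21 (edgeR adjusted p = 1.48e-05) and 1.48 ± 0.18 (edgeR adjusted p = 5.54e-05). Without the NTC library of day 6, TLR1 and TLR6 were no longer called with shEVI1-2531.

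TLR4 lay apart from the NTC at day 6 and not at day 3. It was at 11.9 and 7.60 CPM with the NTC at day 3 and day 6, at 11.5 and 14.5 with shEVI1-2531 and at 12.7 and 21.3 with shEVI1-2532; the 3 libraries of day 3 lay close together. The log2 ratio to the NTC at day 3 was -0.04 (-0.17 to 0.08) and 0.10 (-0.02 to 0.22), and at day 6 it was 0.94 (0.81 to 1.06) and 1.49 (1.37 to 1.61). The fitted effect was called with shEVI1-2532 (0.84 ± 0.27, edgeR adjusted p = 0.0269) and not with shEVI1-2531 (0.40 ± 0.27, edgeR adjusted p = 0.34). The call with shEVI1-2532 was lost with library totals in place of TMM and without the NTC or the shEVI1-2532 library of day 6, and a call with shEVI1-2531 was gained without the NTC library of day 3.

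TLR8 was at 0.141 and 0.161 CPM with the NTC, at 1.17 and 1.39 with shEVI1-2531 and at 2.61 and 6.74 with shEVI1-2532. No group overlapped another, and the share of all genes with such a separation was not counted. The fitted effects were 3.10 ± 0.38 (edgeR adjusted p = 0.000226) and 4.91 ± 0.39 (edgeR adjusted p = 2e-06), from only 16 and 18 counts in the NTC libraries. TLR7 had 8 to 22 counts in the 6 libraries and was called with neither shRNA (edgeR adjusted p = 0.478 and 0.285). The overlapping antisense gene TLR8-AS1 had 0 to 5 counts in the 16 libraries. MYD88 ran in another order from the receptors. It was at 70.8 and 96.2 CPM with the NTC, at 122 and 158 with shEVI1-2531 and at 72.9 and 130 with shEVI1-2532. At day 3 the shEVI1-2532 library lay at the level of the NTC. The fitted effect was 0.76 ± 0.15 (edgeR adjusted p = 0.00393) with shEVI1-2531 and 0.31 ± 0.15 (edgeR adjusted p = 0.109) with shEVI1-2532, and it was called with shEVI1-2532 without that shRNA's library of day 3.

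In all, 7 of 9 members rose with shEVI1-2532, where 41.1% of all genes were called and 21.2% upward, and 6 of 9 rose with shEVI1-2531, where 17.4% were called and 9.49% upward. The member medians were 2.02 and 0.87 on the log2 scale, against 0.00 and 0.01 over all genes tested. Both shRNAs were compared with the same NTC libraries. The difference between them was tested itself, and shEVI1-2532 minus shEVI1-2531 was called in 6 of 9 members, where 24.2% of all genes were called, 12.2% higher and 12% lower. LY96 (2.88 ± 0.28, edgeR adjusted p = 4.26e-05), TLR8 (1.81 ± 0.32, edgeR adjusted p = 0.00164), TLR2 (1.49 ± 0.16, edgeR adjusted p = 8.01e-05), TLR1 (1.06 ± 0.20, edgeR adjusted p = 0.00284) and TLR6 (0.61 ± 0.18, edgeR adjusted p = 0.028) were higher with shEVI1-2532. MYD88 was lower with it (-0.45 ± 0.15, edgeR adjusted p = 0.041). CD14 was not called (0.54 ± 0.21, interval 0.09 to 0.99, edgeR adjusted p = 0.0769), although its unadjusted p was under 0.05. Single libraries bore on some of these calls. TLR6 was not called with library totals or without the shEVI1-2531 library of day 3 or either shEVI1-2532 library, MYD88 not without either library of day 3 of these shRNAs, TLR8 not without the shEVI1-2532 library of day 6, and CD14 was called without either of these libraries of day 3.

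**Figure D3:**
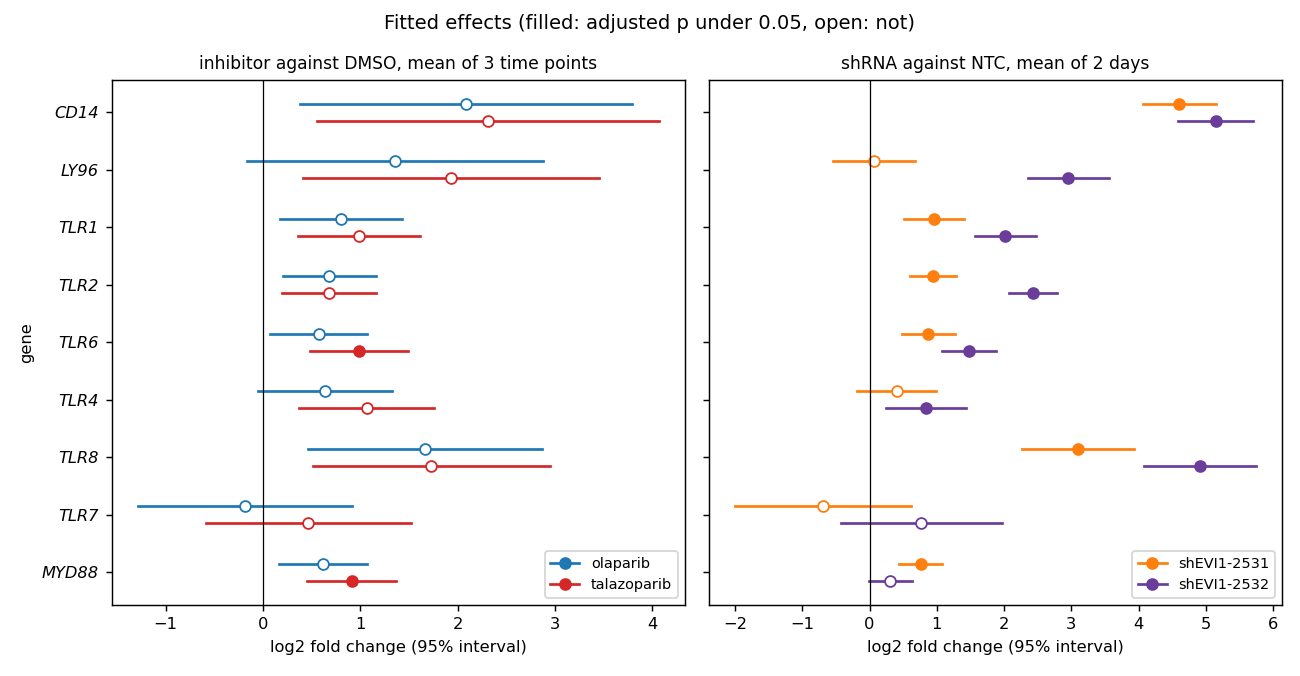
Fitted log2 fold changes of 9 members with 95% intervals, for each inhibitor against DMSO (left) and each shRNA against the NTC (right), with filled points at an edgeR adjusted p under 0.05. Intervals of CD14 and LY96 are wider for the inhibitors than for the shRNAs, and CD14 stands at 4.60 and 5.14 with the 2 shRNAs.

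The rest of the pathway was read from 64 genes in 7 lists. In the IRAK and TRAF relay, the kinases and ubiquitin ligases between MYD88 and NF-κB, 0 of 16 were called for the mean inhibitor effect, 1 of 16 with shEVI1-2532 and 2 of 16 with shEVI1-2531, where 4.17%, 41.1% and 17.4% of all genes tested were called. The gene called in both was MAP3K7, which encodes the kinase TAK1, at -1.63 ± 0.13 (edgeR adjusted p = 2.94e-06) with shEVI1-2532 and -1.21 ± 0.13 (edgeR adjusted p = 0.000112) with shEVI1-2531, and it also fell with time under the inhibitors (-0.75 per doubling, edgeR adjusted p = 1.78e-07). The other called gene was IKBKG, which encodes the regulatory subunit of the IKK complex, at 0.64 ± 0.19 with shEVI1-2531. The list medians lay between -0.098 and -0.045 in these comparisons. Of the 5 other TIR adaptors 3 were tested. TIRAP (0.53 ± 0.20, edgeR adjusted p = 0.0486), which bridges TLR2 and TLR4 to MYD88, and PIK3AP1 (1.15 ± 0.16, edgeR adjusted p = 0.000155) rose with shEVI1-2532. They were 2 of the 3 tested, where 21.2% of all genes tested rose. With shEVI1-2531 0 of the 3 were called, where 17.4% of all genes were.

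Several genes for proteins that carry or fold the receptors rose in the knockdown. With shEVI1-2532, 4 of 7 rose and 1 fell, where 21.2% of all genes tested rose, with CD36, a scavenger receptor that acts with TLR2, at 1.79 ± 0.19 (edgeR adjusted p = 1.9e-05), CNPY3, a TLR chaperone, at 1.22 ± 0.14 (edgeR adjusted p = 3.09e-05) and UNC93B1, which carries endosomal TLRs, at 0.96 ± 0.16 (edgeR adjusted p = 0.000525). LRRC59 fell by 0.35 (edgeR adjusted p = 0.0388). With shEVI1-2531, CD36 (1.87), CNPY3 (0.57) and UNC93B1 (0.78) were the 3 of 7 that rose, where 9.49% of all genes did. Of the inhibitors of the pathway, 9 of 11 rose and 1 fell with shEVI1-2532, beside the same 21.2%. TOLLIP (1.56 ± 0.13, edgeR adjusted p = 3.25e-06), DOK3 (1.36 ± 0.13, edgeR adjusted p = 9.07e-06) and PELI3 (1.43 ± 0.17, edgeR adjusted p = 3.6e-05) led, and RNF216 fell by 0.54. With shEVI1-2531, 4 of 11 rose beside 9.49%, and 5 of 11 had an inhibitor effect that rose with time, where 8.15% of all genes did.

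Of the NF-κB target genes, cytokines with the enzyme gene PTGS2 and the regulator gene NFKBIZ, 5 of 7 tested rose in the mean inhibitor effect, where 3.16% of all genes did, with a list median of 1.91. CCL4 (2.42 ± 0.22, edgeR adjusted p = 0.00613) and CCL3 (2.22 ± 0.33, edgeR adjusted p = 0.0206), chemokines of activated myeloid cells, and TNF (1.91 ± 0.33, edgeR adjusted p = 0.0335) had the smallest p. In the knockdown 3 of 7 rose with shEVI1-2532, where 21.2% of all genes did, and 4 of 7 with shEVI1-2531, where 9.49% did, among them IL1B at 2.43 ± 0.22 (edgeR adjusted p = 6.29e-06) and 1.18 ± 0.22 (edgeR adjusted p = 0.00283) and CXCL8 at 1.94 ± 0.17 (edgeR adjusted p = 5.2e-06) and 1.67 ± 0.17 (edgeR adjusted p = 7.86e-05). Of the transcription factors, 2 of 9 rose in the mean inhibitor effect, RELB at 1.03 ± 0.20 (edgeR adjusted p = 0.0399) and IRF7 at 0.69 ± 0.13 (edgeR adjusted p = 0.0397). With shEVI1-2532 1 of 9 rose and 1 fell, where 41.1% of all genes were called. RELA rose by 0.71 (edgeR adjusted p = 0.000934) and IRF5 fell by 0.75 (edgeR adjusted p = 0.00262). With shEVI1-2531 1 of 9 rose and 2 fell, where 17.4% of all genes were called. RELB fell by 0.98 (edgeR adjusted p = 0.0148) and NFKB2 by 1.13 (edgeR adjusted p = 0.00441), and IRF8 rose by 1.13 (edgeR adjusted p = 0.00813). For the difference between the shRNAs 3 of 9 were higher and 1 lower with shEVI1-2532, where 24.2% of all genes were called. RELB was higher with shEVI1-2532 than with shEVI1-2531 by 1.02 (edgeR adjusted p = 0.00939). Of the other TLRs and TLR-like receptors 3 of 5 were tested, without TLR3 and TLR9. With shEVI1-2531 1 of the 3 rose and 1 fell, beside the same 17.4% called. CD180 and LY86, which form the surface complex RP105/MD-1, went apart with shEVI1-2531, CD180 at 1.72 ± 0.27 (edgeR adjusted p = 0.0012) and LY86 at -2.12 ± 0.32 (edgeR adjusted p = 0.000965). Over the 64 genes, 7 rose and 0 fell of 55 tested in the mean inhibitor effect, 19 rose and 5 fell of 56 with shEVI1-2532, and 14 rose and 4 fell of 56 with shEVI1-2531, where 3.16%, 21.2% and 9.49% of all genes tested rose.

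**Figure D4:**
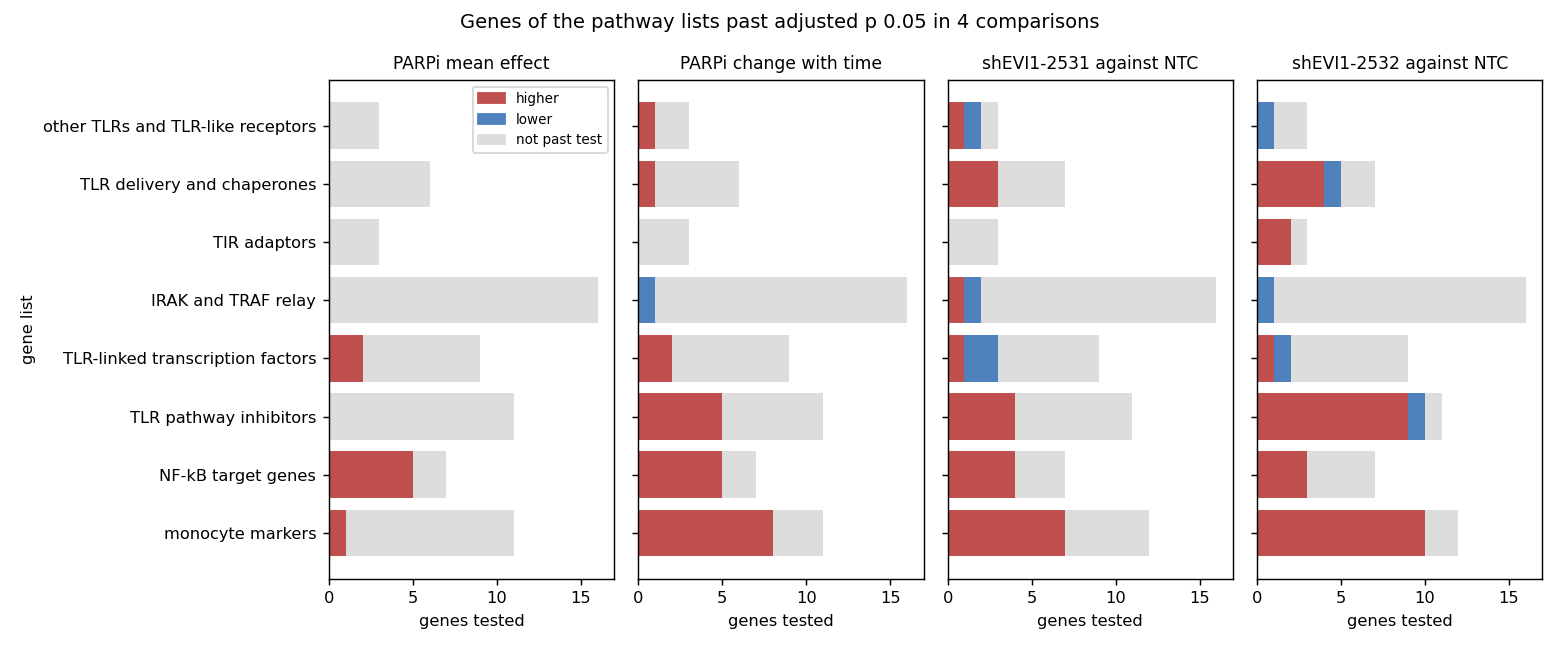
Number of genes in each of 7 pathway lists and a list of monocyte markers that were higher (red), lower (blue) or not past the test (grey) at an edgeR adjusted p under 0.05, in 4 comparisons. Of the IRAK and TRAF relay at most 2 of 16 were called in any panel, while 9 of 11 pathway inhibitors and 10 of 12 monocyte markers were higher with shEVI1-2532.

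Monocyte markers outside the members were read beside them. Of 12 such genes, 10 rose with shEVI1-2532 and 7 with shEVI1-2531, where 21.2% and 9.49% of all genes tested did. Under the inhibitors 8 of 11 tested rose with time, where 8.15% of all genes did, and 1 of 11 rose in the mean inhibitor effect, where 3.16% did. LYZ, the lysozyme gene, rose by 4.85 ± 0.19 (edgeR adjusted p = 4.56e-08) with shEVI1-2532 and by 2.59 ± 0.17 (edgeR adjusted p = 4.15e-06) with shEVI1-2531. The summed level of the list was 1046 to 1354 CPM in the DMSO and untreated libraries, 1253 to 15250 in the inhibitor libraries, 1282 to 1703 with the NTC, 2907 to 3462 with shEVI1-2531 and 10720 to 11010 with shEVI1-2532, with S100A9 the most abundant. The progenitor markers went the other way in the knockdown, with 4 of 6 lower with shEVI1-2532 and 3 of 6 lower and 1 higher with shEVI1-2531. Of 18606 genes tested, 3706 and 1470 were lower. Under the inhibitors 0 of 5 progenitor markers were called in the mean effect. With time 2 of 5 were lower, where 1431 of 17218 genes were. The progenitor list summed to 589 to 966 CPM with the NTC, 293 with shEVI1-2531 in both libraries and 155 to 178 with shEVI1-2532. Because these are bulk libraries, a larger share of monocyte-like cells and more receptor RNA per cell cannot be told apart.

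Markers of other lineages were read as well. Of the dendritic cell markers 4 of 8 rose and 1 fell with shEVI1-2532, 3 of 8 rose and 2 fell with shEVI1-2531, and 3 of 7 rose in the mean inhibitor effect, beside 21.2%, 9.49% and 3.16% of all genes that rose. Their summed level was 10.6 to 26.5 CPM in the DMSO and untreated libraries, 12.5 to 73.3 in the inhibitor libraries, 17.7 to 28.8 with the NTC, 25.7 to 37.4 with shEVI1-2531 and 23.5 to 71.0 with shEVI1-2532. XCR1 was at or under the floor throughout. The B cell list summed to 11.4 to 28.8 CPM over all groups with MS4A1 at or under the floor, the T cell list to 3.77 to 11.7 CPM, and the erythroid list to 0.174 CPM at most with HBA2 at or under the floor. The megakaryocyte list summed to 80.2 to 118 CPM in the DMSO and untreated libraries, 115 to 254 in the inhibitor libraries, 87.5 to 183 with the NTC, 135 to 163 with shEVI1-2531 and 38.5 to 65.1 with shEVI1-2532. Of its 4 tested genes, 1 rose in the mean inhibitor effect (ITGA2B, 0.87 ± 0.14, edgeR adjusted p = 0.0253), 0 rose and 2 fell with shEVI1-2532 (ITGA2B by 1.32 and PPBP by 0.86, edgeR adjusted p = 5.59e-05 and 0.0332), and 1 rose and 1 fell with shEVI1-2531 (PPBP at 2.97 and GP9 at -2.185, edgeR adjusted p = 5.62e-05 and 0.00153). The part of any of these lists in the levels of the members was not tested.

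Across the 16 libraries, centred within each experiment, the members' log2 CPM ran most closely for TLR1 and TLR6 (Pearson r = 0.972), TLR1 and TLR2 (r = 0.964), and CD14 and TLR8 (r = 0.952). TLR1 and TLR6 share exonic bases, as given above, and all pairs share libraries and their depth. CD14 and LY96, whose products act on the same ligand, ran less closely (r = 0.638), and TLR7 ran at 0.146 to 0.562 with every other member. Among 9245 other genes, the closest to CD14 were SIGLEC7 (r = 0.981), F11R (r = 0.980) and FUCA1 (r = 0.978), and those to LY96 were RNASE6 (r = 0.977), SAT2 (r = 0.974) and CSTA (r = 0.971). The closest to TLR1 was CLEC1A (r = 0.985), a C-type lectin gene that was also the third for TLR2 (r = 0.973), behind AGTPBP1 (r = 0.980) and SLC25A40. TLR4 ran with ENTPD1 (r = 0.961), TLR6 with YPEL2 (r = 0.976), TLR8 with CSGALNACT1 (r = 0.984) and MYD88 with ADGRE1 (r = 0.967) and CR1 (r = 0.961). These values describe 16 libraries and follow the contrasts of both experiments.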

How the data were processed

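RNA-Seq counts of 16 MUTZ-3 libraries were used (100-base paired reads, TruSeq Stranded mRNA kit). Per the submitters' processing notes, reads were treated with STAR, Picard and featureCounts on hg38/GRCh38; versions, annotation and the strand setting are not given in the sources used here. The deposited files hold raw counts per gene, which were tested, and TPM values that the authors computed over the whole gene span, introns included (largest deviation 5.1e-11 when recomputed), which were not used. Samples were grouped by their labels. Genes that reached 10 counts in 3 of the 9 matched PARPi libraries, or in 2 of the 6 knockdown libraries, were fitted with edgeR 4.0.16 (TMM, quasi-likelihood test, two-sided, R 4.3.3) with time point or day as a factor, and p-values were adjusted by Benjamini-Hochberg over all genes tested. The fits left 4 residual degrees of freedom for the mean effects, 2 for the slopes and 2 for the knockdown. The spread of all genes added 4.23 degrees of freedom for the mean effects and 10.1 for the knockdown. For the slopes the error was wholly that of all genes. The slopes of both inhibitors were tested jointly, and their mean is given as the size. The untreated library entered no test. Intervals of single-library ratios are exact binomial at 95%. Alternatives included DESeq2 1.42.0, other scalings, other count minimums (50, none), no time point or day, and leaving out each library or time point. The script was tested on simulated data. All 10 members were named, and from each pathway or marker list at most 3 genes per comparison and direction, those with the smallest p among the called; for each member the 3 genes with the highest correlation were taken, and MECOM, CD34 and overlapping genes were added. The members and lists were chosen with earlier results of these data known. Promoter sequences came from RefSeq (GRCh38.p14). Some items of the marker lists are not reported here.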

Additional observations from a re-analysis of the deposited data

Results flagged for a closer look

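The effects of the 2 shRNAs differed by a test of the difference itself (edgeR) in 6 members: LY96 by 2.88, TLR8 by 1.81, TLR2 by 1.49, TLR1 by 1.06 and TLR6 by 0.61 on the log2 scale, higher with shEVI1-2532, and MYD88 by -0.45, lower with it. The inhibitor effect differed between time points in 8 members, by a mean slope per doubling of time of 2.12 for CD14, 1.76 for LY96, 1.46 for TLR8, 0.80 for TLR4, 0.67 for TLR1, 0.52 for TLR2, 0.51 for TLR6 and 0.50 for MYD88. No group held enough libraries to test for a single library far from the others.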

How the results depend on the processing

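With 1 library per condition, the inhibitor calls depended on settings. The members called for the mean inhibitor effect, 0 in the report, were 7 with DESeq2, 8 without a count filter, 1 with upper quartile scaling, 1 with the newer quasi-likelihood estimate of edgeR (chosen after seeing the data), and 0 to 8 when a time point was left out. For olaparib, 0 in the report, they were 1 with DESeq2, 5 without a filter and 0 to 8 without a time point. For talazoparib, 2 in the report, they were 7 with DESeq2, 8 without a filter, 1 with DESeq2 size factors, 0 with library totals, with a minimum of 50 counts or without time in the model, and 0 to 8 without a time point. The members that changed with time, 8, were 5 with library totals. For shEVI1-2532, 7 became 1 with both shRNAs as 1 group. For shEVI1-2531, 6 became 1 with that setting and 2 without day in the model. For the difference between shRNAs, 6 became 3 without day in the model. The cause was not tested.

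Over all genes, the 718 calls of the mean inhibitor effect ranged from 0 (without 24 h) and 16 (no time in the model) to 3768 (without 12 h), with 3474 by DESeq2; the 110 of olaparib from 0 to 977, the 688 of talazoparib from 0 to 3954, the 7648 of shEVI1-2532 from 308 (both shRNAs as 1 group) to 8482, the 3235 of shEVI1-2531 from 308 to 3999 and the 4505 of their difference from 921 to 5118. Library totals moved the median log2 value of all genes to -0.30 with shEVI1-2532, -0.16 with shEVI1-2531, -0.11 for their difference, -0.12 for the slope and -0.10 for talazoparib. The share of calls upward then went from 51.5% to 28.4% with shEVI1-2532, from 54.6% to 31.6% with shEVI1-2531, from 50.4% to 33.7% for the difference, from 49.5% to 30.5% for the slope and from 75% to 90.5% for talazoparib. With DESeq2 the upward share was 52.8% in place of 75.8% for the mean inhibitor effect, 87.3% in place of 100% for olaparib and 52.5% for talazoparib.

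Of 865 member effects under an alternative, 742 kept sign and call, 107 kept the sign and changed the call, and 16 changed sign, none of them called. When time points were left out, TLR7 ranged from -0.35 to 0.51 for the mean inhibitor effect and from -0.77 to 0.28 for olaparib, and for talazoparib minus olaparib CD14 ranged from -0.10 to 0.39 and TLR8 from -0.16 to 0.20. TLR7 turned to 0.21 for shEVI1-2531 with both shRNAs as 1 group. TLR2, at -0.00 for talazoparib minus olaparib, was 0.0028 with DESeq2, 0.0029 with DESeq2 size factors, 0.0086 with a minimum of 50 counts, 0.0271 with upper quartile scaling, 0.0388 without time and 0.0993 without 12 h. For shEVI1-2531, LY96 was -0.10 with library totals and ranged from -0.11 to 0.24 when a library was left out, TLR4 ranged from -0.11 to 1.01, and TLR4 ranged from -0.067 to 0.85 for the difference between shRNAs. Where a left-out library left 1 library in a group, that library was assumed to vary like the others. The depth limits TLR5, TLR7 and, in the NTC libraries, TLR8. No paired analysis was possible because the labels number no replicates; the fits matched libraries by time point or day instead, and the counts of calls without that term are given above.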
